A study of Capra hircus with 12 samples.

Results

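Mammary gland expression in feed-restricted Palmera goats (PE) was set against that in control Majorera goats (MC), a contrast in which breed and diet both differ. It rests on 6 of the 12 libraries of the study, the 3 PE and the 3 MC libraries, chosen by the breed and treatment in their sample labels. The deposited table of this pair holds 1869 of the 4974 genes that occur in any of the 6 deposited tables. The libraries came from udder biopsies of goats (Capra hircus), 3 goats a group, and poly(A) RNA was sequenced as stranded read pairs. Per the study's methods, goats in peak lactation were used for the trial. The biopsies were taken at its end, after the period of restricted or control feeding.

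PE goats were Palmera, a Canary Island dairy breed regarded as susceptible to seasonal weight loss, and were fed wheat straw with a vitamin and mineral supplement. MC goats were Majorera, a breed regarded as tolerant, and received a diet that met lactation needs. ME (restricted Majorera) and PC (control Palmera) make up the other 6 libraries and are used as a second pair, ME vs PC, which has no library in common with PE vs MC. Each diet had its own pen, and in PE vs MC breed, diet and pen all differ and cannot be told apart. In biopsies, fewer cells of a type and less RNA per cell cannot be told apart either.

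In lactation, luminal epithelial cells of the mammary alveoli make caseins, alpha-lactalbumin, lactose and milk fat, and contractile myoepithelial cells around them eject the milk in response to oxytocin. The alveoli lie in a stroma of fibroblasts, collagen and adipocytes. When milk removal or nutrient supply drops, secretion declines, and during involution, the return to a non-secretory gland, epithelial cells are lost, matrix proteases are made and phagocytes enter the tissue.

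The counts had 2 features that bear on every value. First, the listed totals of mapped reads fitted the counts only when the control and restricted labels were exchanged within each breed: the largest gap was then 0.718%, against up to 84.8% as listed, and 3 PC libraries held more counts than read pairs as listed. The totals were used in the fitting order, and the columns kept their sample labels. The study's supplementary counts carried the same labels as the columns: of 3411 counts compared, 3411 lay within 1%. Which of the 2 sets of labels is right was not tested. If it were the other one, the libraries named PE and MC here would be PC and ME. By the labels used, both restricted groups had the lower mean share of read pairs in milk protein genes, with 49.1% in PE and 49.2% in ME, against 68.3% in MC and 70.3% in PC. Second, PE2 stood apart from the other PE libraries. Its TMM factor, which corrects for a few genes taking most reads, was 0.83, against 1.68 in PE1 and 1.74 in PE3, and the factors of MC1, MC2 and MC3 were 0.85, 0.68 and 0.69. PE2 was the PE library closest to the MC mean for 52.2% of the genes with a log2FC below 0 and for 57.4% of those above 0. Depth lay between 14700960 and 17711224 read pairs in PE and between 18290356 and 20976867 in MC.

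Values below are CPM, counts per 1e6 read pairs after scaling by total and TMM factor. Log2FC is PE minus MC. A gene was called at an adjusted p under 0.05 (edgeR quasi-likelihood F test, two-sided, Benjamini-Hochberg over the 14760 genes that had been tested for the table) if its log2FC was also beyond 1.5 in either direction and 1 or more libraries held over 100 counts.

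Of the 1869 genes, 10 were called (0.535%). These were 9 genes lower in PE (0.482%) and 1 higher in PE (0.0535%). Among the 9 were an adipocyte hormone, a contractile actin, 3 matrix proteins, a sterol enzyme and a Myc family factor. A further 3 genes passed the adjusted p but not the fold minimum, and 1718 genes (91.9%) had an unadjusted p under 0.05, which is how the table had been selected. With library totals alone and no TMM factors, 505 genes were called, 470 higher and 35 lower in PE, so that the balance of directions rests on the scaling. That scaling moved the median log2FC of the table to 0.35, against -0.57 with TMM, a shift of 0.92. DESeq2 called 78 genes (4.17%), 24 higher (1.28%) and 54 lower (2.89%), with all 10 among them. Without PE2 the edgeR count was 87 and without MC3 it was 48, and these also held all 10. It was 4 without MC1, 3 without MC2 and 6 without PE1.

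RNASE1, a secreted ribonuclease (GeneID 102174664, listed as LOC102174664 in RefSeq ARS1.2), had the lowest log2FC of the table. Its counts were 2, 1 and 3 in PE1, PE2 and PE3, against 5603, 4847 and 16046 in MC1, MC2 and MC3. The groups did not overlap, and each MC library held at least 4847 reads where no PE library held more than 3. Summed over the libraries, its level in MC was 6662 times that in PE (95% counting interval 3061 to 18156, counting error only). The log2FC was -12.63 ± 0.79 (SE, adjusted p = 0.000478). RNASE1 was low in the other groups too, at 0.55, 1.10 and 0.42 CPM in ME and 2.45, 2.63 and 1.77 CPM in PC, so that MC stood alone among the 4 groups, with 359, 338 and 1156 CPM. Ribonucleases of this family have close copies. The counts of RNASE1 were whole in all 12 libraries and show no fractional division of reads between copies. Whether reads were assigned to the right copy was not tested.

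ADIPOQ, which encodes the adipocyte hormone adiponectin, had 0.32, 0.61 and 0.30 CPM in PE1, PE2 and PE3, against 17.4, 10.96 and 17.2 CPM in MC1, MC2 and MC3. Every PE library lay far below every MC library. The log2FC was -5.27 ± 0.34 (SE, adjusted p = 0.000478). ME had 1.10, 0.54 and 0.94 CPM, and PC had 1.13, 7.47 and 6.82 CPM. RNASE1 and ADIPOQ were called under each of the 17 alternatives run.

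LOC102171034, a transcribed pseudogene in RefSeq ARS1.2, had 24.8, 29.4 and 29.6 CPM in PE, against 250, 488 and 456 CPM in MC, with a log2FC of -3.83 ± 0.29 (SE, adjusted p = 0.00156). Single libraries of the other groups sat at either level: ME had 268, 25.7 and 277 CPM and PC had 25.2, 24.1 and 154 CPM. Its call was lost only when all 12 libraries entered the fit (adjusted p = 0.121, the highest of the 17 alternatives, and at most 0.0116 when 1 library was left out).

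MYCL, a Myc family transcription factor, had 0.77, 1.29 and 1.80 CPM in PE, against 12.2, 15.1 and 9.73 CPM in MC, and its log2FC was -3.25 ± 0.32 (SE, adjusted p = 0.00913). THBS3, thrombospondin 3 of the extracellular matrix, had 0.57, 0.54 and 0.49 CPM in PE, against 6.74, 5.59 and 3.75 CPM in MC, with a log2FC of -3.32 ± 0.33 (SE, adjusted p = 0.00913). Neither gene's groups overlapped, and for both every PE library also lay under the lowest ME library, which had 2.20 CPM of MYCL and 0.75 CPM of THBS3.

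CCDC80, a matrix protein made in stroma and fat, averaged 4.63 ± 0.49 CPM in PE and 32.9 ± 15.6 CPM in MC (SD, n = 3 each), a log2FC of -2.84 ± 0.36 (SE, edgeR adjusted p = 0.0372). TGFBI, a matrix protein induced by transforming growth factor beta, averaged 8.32 ± 1.87 CPM in PE and 27.7 ± 5.91 CPM in MC (SD, n = 3 each), with a log2FC of -1.73 ± 0.23 (SE, edgeR adjusted p = 0.0383). For both, ME was divided, since ME2 had 24.7 CPM of CCDC80 and 26.2 CPM of TGFBI while the other ME libraries stayed at or under 4.53 and 8.51 CPM.

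ACTG2, a smooth muscle actin of contractile cells, had 5.02, 11.4 and 9.26 CPM in PE, against 49.6, 59.0 and 50.9 CPM in MC, and its log2FC was -2.64 ± 0.28 (SE, adjusted p = 0.0126). TM7SF2, a sterol reductase of cholesterol synthesis, had 9.97, 12.8 and 8.47 CPM in PE, against 33.0, 27.4 and 33.3 CPM in MC, with a log2FC of -1.59 ± 0.19 (SE, adjusted p = 0.031). Neither overlapped between the groups. TM7SF2 and TGFBI were no longer called under totals alone, where their log2FC was -0.73 each.

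RARRES1, a retinoic acid response gene, was the only called gene that was higher in PE. It had 6.12, 4.15 and 5.21 CPM in PE, against 0.90, 1.26 and 0.94 CPM in MC, with a log2FC of 2.32 ± 0.29 (SE, adjusted p = 0.0363). The lowest PE library lay above the highest MC library, and ME, at 3.78, 13.2 and 5.54 CPM, lay above PC, at 1.32, 2.76 and 1.26 CPM, as well.

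**Figure D1:**
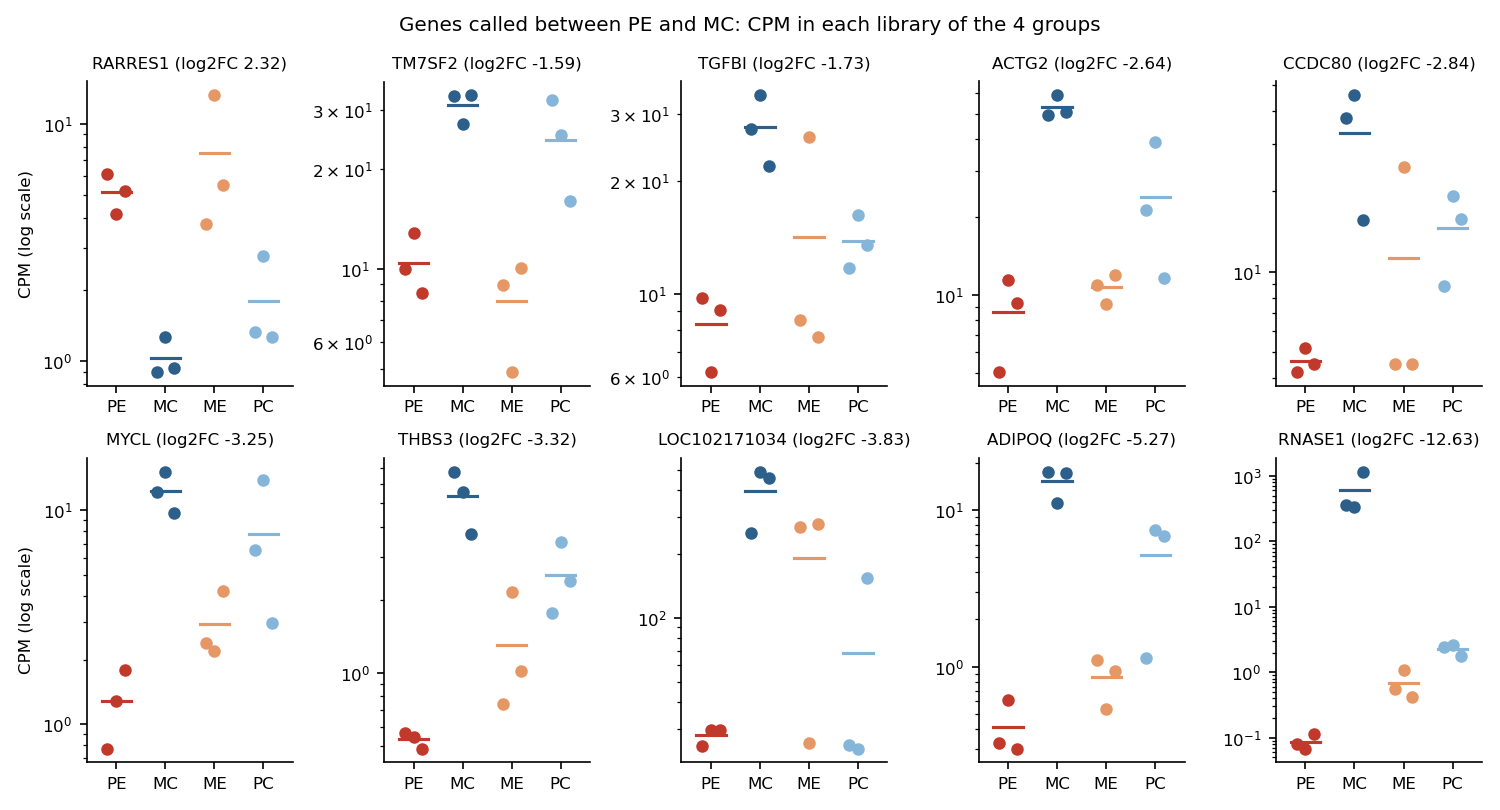
CPM (log axis) of the 10 genes called between PE and MC in each library of PE, MC, ME and PC, with points for libraries and a line for the group mean. PE and MC do not overlap in any panel, RNASE1 is high in MC alone, and single ME or PC libraries of LOC102171034 sit at either level.

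The calls rested on different numbers of libraries. THBS3, MYCL and ACTG2 reached adjusted p-values of up to 0.0593, 0.0593 and 0.0693 when 1 library was left out. CCDC80, TGFBI, TM7SF2 and RARRES1 reached up to 0.12, 0.122, 0.118 and 0.12 (edgeR).

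Below the fold minimum, PPP1R15A, which restarts translation after stress by opposing the phosphorylation of eIF2 alpha, rose. It had 22.1, 17.1 and 18.9 CPM in PE, against 8.34, 6.98 and 7.78 CPM in MC, with a log2FC of 1.33 ± 0.17 (SE, adjusted p = 0.037). ITPKB, an inositol trisphosphate kinase, had 69.8, 60.6 and 55.9 CPM in PE, against 21.4, 20.0 and 28.8 CPM in MC, and a log2FC of 1.41 ± 0.19 (SE, adjusted p = 0.046). CLN6, an endoplasmic reticulum protein needed for lysosome function, fell, with 2.71, 2.99 and 3.30 CPM in PE, against 7.63, 8.87 and 8.14 CPM in MC, and a log2FC of -1.45 ± 0.20 (SE, adjusted p = 0.046). With 1 library left out the adjusted p of PPP1R15A, ITPKB and CLN6 reached 0.127, 0.168 and 0.156 (edgeR), and under totals alone the log2FC of CLN6 was -0.51 and did not pass.

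The next genes by p among those with higher values in every PE library did not pass the adjusted p (0.061 to 0.064, edgeR). DUSP1, a phosphatase that switches off MAP kinases, had 8.39, 14.1 and 9.82 CPM in PE, against 3.72, 3.56 and 2.59 CPM in MC. BCL6, a transcriptional repressor, had 16.7, 14.6 and 14.9 CPM in PE, against 7.06, 7.82 and 5.91 CPM in MC. ZFP36L1, which speeds the decay of AU-rich mRNAs, had 26.4, 27.8 and 23.0 CPM in PE, against 13.6, 7.75 and 10.4 CPM in MC. EPHB3, an ephrin receptor, had 18.2, 19.0 and 19.0 CPM in PE, against 7.38, 9.01 and 10.3 CPM in MC, the narrowest PE range of these genes. VWA5A had log2FC 1.25 ± 0.19 (SE), CRYAB, a small heat shock protein, 1.23 ± 0.20 (SE), and LOC102186478, a V segment in RefSeq ARS1.2, 2.79 ± 0.43 (SE), the last with one PE library, PE3, at 84.8 CPM and the others at 28.7 and 31.2 CPM.

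Counts of list members are read against the table itself, where 45.2% of genes had a log2FC above 0, 54.8% below 0, and the median was -0.57. The libraries of 1319 genes (70.6%) did not overlap, 600 of them higher in PE (32.1%) and 719 lower (38.5%). All of these genes had been selected for differing, so that a member outside the table has no value here. Under totals alone every list median was higher than with TMM.

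Summed over the milk protein genes, of which beta-casein took the most reads, PE1 and PE3 lay below MC and PE2 lay within its range, while single genes differed in which PE libraries were low. As a share of all read pairs, the 5 genes with counts took 45.2%, 65.3% and 36.8% in PE1, PE2 and PE3, against 64.5%, 70.9% and 69.5% in MC1, MC2 and MC3. PE2 lay within the MC range and the other PE libraries under it, and the 5 genes took at least 36.8% of each library of either group, which fits the labelled lactating gland. The difference was -19.2 percentage points (two-sided exact permutation p = 0.2, where 3 against 3 libraries cannot go below 0.1), with means of 49.1 ± 14.7% in PE and 68.3 ± 3.35% in MC (SD, n = 3 each).

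CSN2, beta-casein, made up 32.7%, 51.1% and 19.2% of read pairs in PE, against 44.2%, 48.6% and 50.5% in MC, so that PE2 had the highest share of the 6 libraries and PE3 the lowest. CSN1S2, alpha-s2-casein, made up 2.18%, 4.60% and 2.66% in PE, against 5.97%, 7.20% and 6.29% in MC, without overlap. LALBA, alpha-lactalbumin and thereby the regulator of lactose synthase, made up 0.89%, 1.09% and 0.83% in PE, against 3.12%, 1.90% and 1.53% in MC, again without overlap. CSN3, kappa-casein, made up 9.26%, 8.35% and 13.8% in PE, against 10.996%, 12.9% and 11.04% in MC. CSN1S1, alpha-s1-casein, made up 0.21%, 0.19% and 0.27% in PE, against 0.26%, 0.18% and 0.15% in MC, and both of these overlapped as shares of read pairs, although CSN3 did not on the CPM scale. PE3 had the highest share of both among the 6 libraries. On the CPM scale the log2FC of the 5 genes ran from -1.90 (LALBA) to -0.60 (CSN1S1), with a median of -1.09, and 0 of the 5 were called by edgeR (3 had an unadjusted p under 0.05). Under totals alone the median was -0.48 and CSN1S1 had a log2FC of 0.22. With PE2 left out the median was -2.10. DESeq2 called LALBA (adjusted p = 0.0017).

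Of 35 milk fat genes 7 were in the table, 6 of them with a log2FC below 0 and a list median of -0.94. DGAT2, an enzyme of triglyceride synthesis, had 0.08, 0.07 and 0.37 CPM in PE, against 5.97, 0.42 and 3.96 CPM in MC, and THRSP, a regulator of lipid synthesis, had 0.12, 0.20 and 0.90 CPM in PE, against 5.71, 1.33 and 4.11 CPM in MC. ME and PC did not exceed 0.88 CPM of either gene, and of the MC libraries MC1 and MC3 lay above that for DGAT2, while MC2 did not. VLDLR, a lipoprotein receptor, had 7.78, 8.91 and 7.83 CPM in PE, against 15.6, 17.9 and 9.87 CPM in MC, and its log2FC of -0.83 turned to 0.08 under totals alone. GPD1, which makes the glycerol-3-phosphate of triglycerides, was the member with the opposite sign, at 18.6, 11.1 and 11.993 CPM in PE and 7.51, 6.63 and 6.20 CPM in MC. By edgeR 0 of the 7 passed the adjusted p, although 6 reached an unadjusted p under 0.05, and DESeq2 called 0. DGAT2 and THRSP held at most 93 and 89 counts in a library, under the count minimum, so they could not be called. Their DESeq2 adjusted p was 0.0023 and 0.0096. The list median was -0.13 under totals alone and -0.53 without MC2.

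All 7 of the 27 cholesterol synthesis genes that were in the table had a log2FC below 0, with a median of -0.78, and 1, TM7SF2, was called. FDPS, farnesyl diphosphate synthase, had 34.6, 35.8 and 26.6 CPM in PE, against 52.3, 50.4 and 56.5 CPM in MC. EBP, a sterol isomerase, had 17.8, 18.2 and 16.2 CPM in PE, against 24.8, 27.3 and 37.4 CPM in MC. For 5 of the 7 the groups did not overlap. Under totals alone the median was 0.16, so that, as for the mitochondrial genes below, the direction of the list rests on the scaling.

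Of the lactose and glucose genes 3 of 23 were in the table, all lower without overlap: LALBA, PFKL, a phosphofructokinase of glycolysis, with 16.4, 11.7 and 14.7 CPM in PE, against 26.0, 25.5 and 20.0 CPM in MC, and PGM1, a phosphoglucomutase, with 15.2, 16.7 and 12.3 CPM in PE, against 23.0, 19.6 and 21.5 CPM in MC. PFKL and PGM1 had log2FC above 0 under totals alone.

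Contractile genes of myoepithelial and smooth muscle cells were low in PE. Of 19 listed, 10 were in the table, 9 of them with a log2FC below 0 (7 without overlap) and a median of -1.11, which was -0.15 under totals alone, and ACTG2 was called. CNN1, a calponin of smooth muscle, had 12.8, 21.9 and 19.6 CPM in PE, against 46.8, 39.9 and 62.3 CPM in MC (adjusted p = 0.064, edgeR). ACTA2, alpha smooth muscle actin, had 57.6, 178 and 112 CPM in PE, against 294, 216 and 289 CPM in MC. OXTR, the oxytocin receptor, had 0.28, 0.07 and 0.45 CPM in PE, against 0.71, 1.19 and 1.44 CPM in MC. TP63, the transcription factor that marks basal epithelial cells, went the other way, with 13.7, 15.6 and 12.7 CPM in PE and 6.41, 7.89 and 7.57 CPM in MC and no overlap (log2FC 0.94 ± 0.18, SE, edgeR adjusted p = 0.087). Under totals alone 4 of the 10 had a log2FC above 0.

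Fibroblast and matrix genes made up the list with the most members in the table after the immediate early genes. Of 29 listed, 18 were in the table, and 17 had a log2FC below 0, with a median of -1.34 (10 without overlap). FAP was the member above 0, at 23.3, 8.10 and 16.2 CPM in PE and 6.99, 9.63 and 6.63 CPM in MC. Its groups overlapped (log2FC 1.04, edgeR adjusted p = 0.23). Under totals alone the median was -0.37 and 5 of the 18 had a log2FC above 0. The edgeR calls numbered 0 of the 18 (16 had an unadjusted p under 0.05) and the DESeq2 calls 7, all lower in PE. LUM, the collagen-binding lumican, had 4.78, 9.73 and 10.98 CPM in PE, against 38.9, 39.7 and 24.5 CPM in MC. SPARC, a collagen-binding glycoprotein, had 46.3, 81.2 and 54.1 CPM in PE, against 238, 389 and 140 CPM in MC. PI16, a marker of adventitial fibroblasts, had 0.69, 2.25 and 0.75 CPM in PE, against 30.1, 26.6 and 3.24 CPM in MC. POSTN, periostin, had 2.19, 0.34 and 0.71 CPM in PE, against 5.13, 27.4 and 12.7 CPM in MC, and MFAP5 had 4.94, 3.88 and 2.10 CPM in PE, against 35.5, 31.7 and 6.63 CPM in MC. MC3 was the lowest MC library for LUM, SPARC, PI16 and MFAP5. Summed over the 18 genes the level lay between 305 and 417 CPM in PE and between 556 and 1638 CPM in MC.

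The adipocyte genes that were in the table were low in PE. All 7 of the 17 listed that were in the table had a log2FC below 0 (6 without overlap), the median was -4.00, and ADIPOQ was called. CIDEC, a lipid droplet protein, had 0.65, 0.20 and 0.15 CPM in PE, against 4.49, 2.02 and 3.75 CPM in MC. It held at most 70 counts in a library, under the count minimum, and could not be called (DESeq2 adjusted p = 0.00017). PLIN4, a perilipin of lipid droplets, had 0.53, 0.82 and 0.37 CPM in PE, against 2.50, 1.75 and 1.23 CPM in MC. AQP7, the glycerol channel of fat cells, had 1, 0 and 0 counts in PE, against 13, 3 and 11 counts in MC. The summed level of the 7 genes lay between 1.199 and 1.66 CPM in PE and between 15.8 and 29.6 CPM in MC, and LEP, which encodes leptin, was at 0 in all 3 PE libraries. Set at the floor of 3 counts over the group, LEP left the median at -3.29. The part of fat in the biopsy in the values of CCDC80, DGAT2 and THRSP was not tested.

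Genes of dividing cells were low in PE without exception among those in the table. All 12 of the 28 cell cycle genes in the table had a log2FC below 0 without overlap of the groups, with a median of -2.49, while 38.5% of the table's genes were lower without overlap, and 0 of the 12 were called by edgeR or DESeq2 (12 had an unadjusted p under 0.05 by edgeR). MKI67, the proliferation antigen, had 0.12, 0.07 and 0.52 CPM in PE, against 4.30, 2.65 and 1.80 CPM in MC (log2FC -3.45 ± 0.62, SE, edgeR adjusted p = 0.079). RRM2, the ribonucleotide reductase subunit for DNA synthesis, had 0, 2 and 1 counts in PE, against 16, 11 and 6 counts in MC. KIF11, the spindle motor, had 0 counts in every PE library, against 5, 6 and 3 counts in MC, which puts it at least 7.04-fold lower in PE against a floor of 3 counts over the group. BIRC5, survivin, also had 0 counts in PE, against 16, 9 and 2 counts in MC, and was at least 13.6-fold lower. With KIF11 and BIRC5 at these bounds the list median was -2.46. The summed level was 3.04 to 4.50 CPM in PE and 9.44 to 17.9 CPM in MC, so that most of these genes held few reads in either group. MKI67, RRM2, KIF11 and BIRC5 held at most 67 counts in any PE or MC library. That is under the minimum of 100 counts, so neither edgeR nor DESeq2 could call them. By DESeq2 the adjusted p was 0.00052 for MKI67, 0.024 for BIRC5, 0.066 for RRM2 and 0.13 for KIF11.

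The mitochondrially encoded genes of the respiratory chain lay lower in PE by similar amounts with TMM factors, and higher in PE under totals alone. Of 13 listed, 10 were in the table, all with a log2FC between -0.84 and -0.54 (8 without overlap), a median of -0.65 and 0 calls by edgeR or DESeq2 (3 had an unadjusted p under 0.05 by edgeR). COX1, a cytochrome c oxidase subunit, had 9043, 18470 and 13598 CPM in PE, against 20285, 26920 and 23432 CPM in MC. ATP6, a subunit of ATP synthase, had 2720, 5276 and 4432 CPM in PE, against 6020, 8340 and 7468 CPM in MC. The list median was close to that of the table, and under totals alone it was 0.23 with all 10 above 0.

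**Figure D2:**
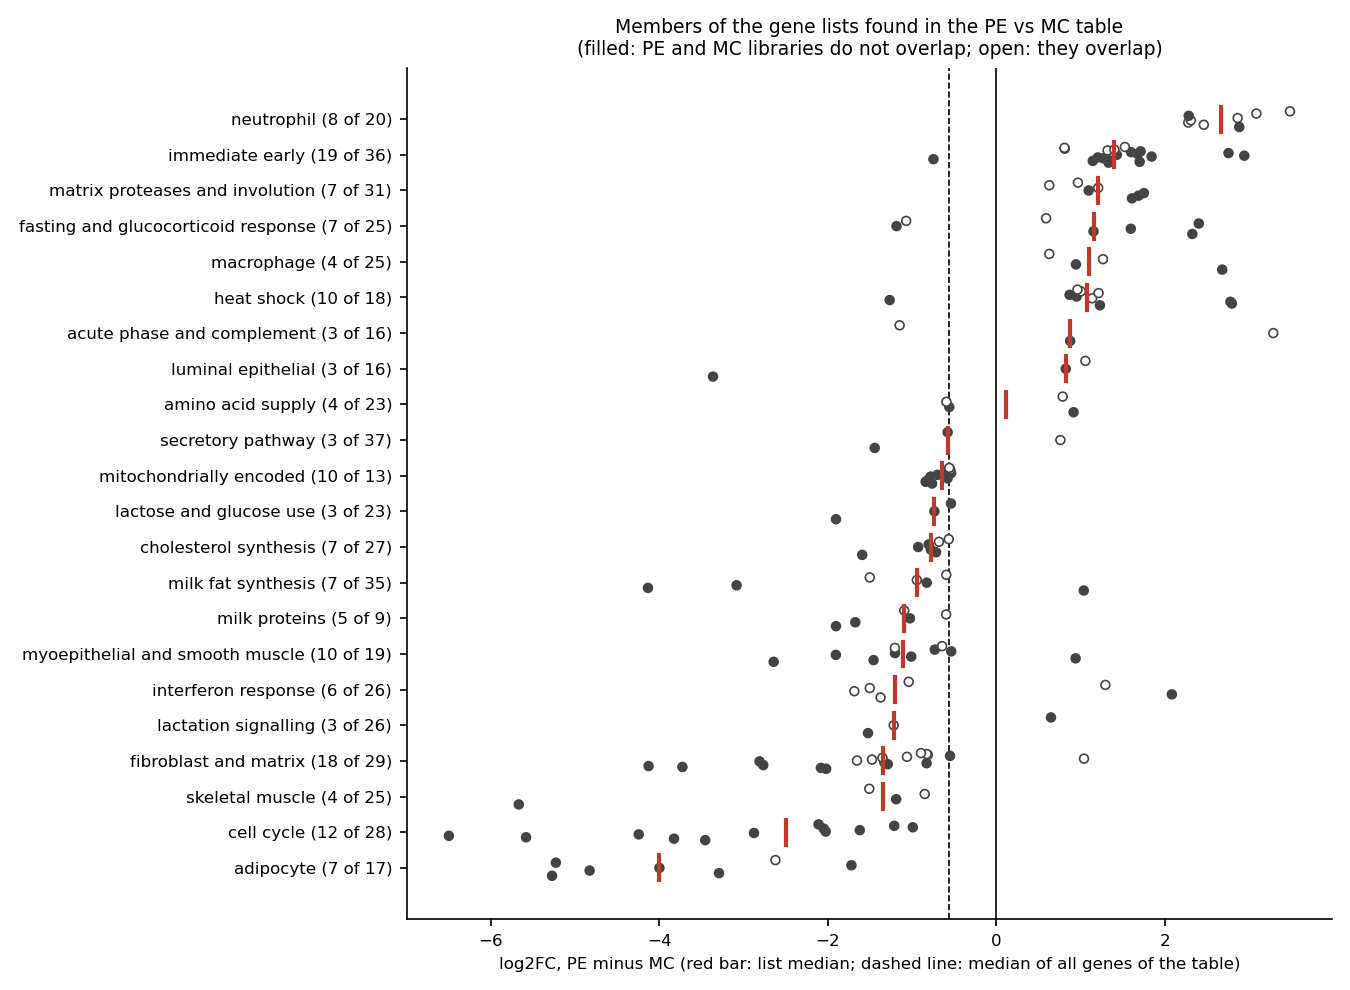
Log2FC (PE minus MC, x axis) of the members of each gene list that were in the table, for lists with at least 3 of them, with a red bar at the list median and a dashed line at the table's median of -0.57. Filled points are genes whose libraries do not overlap and open points genes whose libraries do. The medians of adipocyte (-4.00) and cell cycle genes (-2.49) lie furthest to the left and that of neutrophil genes (2.66) furthest to the right.

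Immediate early genes, which are transcribed within minutes of a stimulus and include stress-activated genes, stood on the other side. Of 36 listed, 19 were in the table, 18 with a log2FC above 0 (13 without overlap), and the median was 1.40. PPP1R15A passed the adjusted p, 0 of the 19 were called by edgeR (16 had an unadjusted p under 0.05), and DESeq2 called 2. JUN, an AP-1 transcription factor, had 31.5, 23.2 and 26.3 CPM in PE, against 9.37, 15.8 and 11.5 CPM in MC (edgeR adjusted p = 0.088). ZFP36, which degrades cytokine mRNAs, had 81.3, 87.6 and 90.8 CPM in PE, against 45.7, 20.9 and 36.8 CPM in MC (edgeR adjusted p = 0.093). NR4A1, an orphan nuclear receptor chosen after its values were seen, had 7.29, 43.3 and 7.83 CPM in PE, against 1.28, 2.02 and 4.25 CPM in MC, so that PE2 held most of its signal. CTGF, a matrix-associated growth factor, was the member below 0, with 33.0, 28.6 and 33.6 CPM in PE and 58.2, 52.8 and 48.8 CPM in MC, and its log2FC of -0.75 turned to 0.21 under totals alone.

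Of 18 heat shock genes, 10 were in the table, 9 with a log2FC above 0 and a median of 1.07. HSP70.1, an inducible HSP70 chaperone, had 142, 171 and 28.3 CPM in PE, against 14.5, 13.1 and 21.6 CPM in MC. HSPA6, a related chaperone, had 4.50, 9.25 and 1.76 CPM in PE, against 0.38, 0.77 and 1.08 CPM in MC. Neither overlapped, although PE3 lay close to MC for both. Counts of HSP70.1 were fractional, so its reads may be shared with other copies, while those of HSPA6 were whole. HMOX1, heme oxygenase 1, had 15.4, 6.26 and 14.7 CPM in PE, against 4.68, 4.12 and 7.85 CPM in MC. HSPB8, a small heat shock protein, was lower, with 2.23, 0.95 and 1.65 CPM in PE and 5.13, 4.26 and 2.45 CPM in MC. DESeq2 called HSP70.1 and HSPA6, and edgeR called none of the 10 (8 had an unadjusted p under 0.05).

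Matrix proteases and other involution genes had higher values in PE. All 7 of the 31 listed that were in the table had a log2FC above 0 (4 without overlap), with a median of 1.21. PLAT, tissue plasminogen activator, had 15.8, 16.3 and 23.5 CPM in PE, against 5.58, 4.19 and 8.50 CPM in MC (edgeR adjusted p = 0.069). MT1MMP, a membrane-bound collagenase named MMP14 in RefSeq, had 45.1, 19.3 and 28.7 CPM in PE, against 10.4, 6.35 and 12.3 CPM in MC. PLAUR, the urokinase receptor, had 7.45, 3.74 and 4.31 CPM in PE, against 2.18, 0.77 and 1.66 CPM in MC. CTSK, cathepsin K, had 55.0, 26.4 and 48.5 CPM in PE, against 20.9, 22.9 and 17.2 CPM in MC. By edgeR 0 of the 7 passed the adjusted p (7 had an unadjusted p under 0.05), and MMP2, CTSS and LGALS3 overlapped. DESeq2 called PLAT, MT1MMP and PLAUR.

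Neutrophil genes had the highest list median, 2.66, and differed widely among the PE libraries. All 8 of the 20 listed that were in the table had a log2FC above 0, but only 2 did not overlap, while 32.1% of the table's genes were higher without overlap. By edgeR 0 of the 8 passed the adjusted p (lowest 0.079, for TREM1), though 8 had an unadjusted p under 0.05, and DESeq2 called 0. CSF3R, the receptor for granulocyte colony-stimulating factor, had 17.5, 1.36 and 13.98 CPM in PE, against 2.37, 1.88 and 2.59 CPM in MC. VNN2, a pantetheinase of granulocytes, had 26.8, 1.63 and 14.2 CPM in PE, against 2.76, 1.95 and 3.10 CPM in MC. CXCR2, a receptor for neutrophil chemokines, had 5.32, 0.54 and 5.75 CPM in PE, against 1.29, 0.32 and 0.72 CPM in MC. PE1 and PE3 were high and PE2 lay within or under the MC range for these 3 genes. TREM1, an activating receptor, differed in that PE2 was above MC too, with 26, 9 and 25 counts in PE, against 2, 1 and 2 counts in MC. Summed over the 11 neutrophil genes with counts in both groups, the level was 134, 27.6 and 69.7 CPM in PE1, PE2 and PE3, against 44.2, 24.3 and 24.1 CPM in MC1, MC2 and MC3. Without PE2 all 8 were free of overlap, and 769 genes of the table were then higher in PE without overlap.

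The 4 of 25 macrophage genes that were in the table had a log2FC above 0, with a median of 1.10 and 2 without overlap. TREM2, a lipid-sensing receptor, had 2.15, 2.99 and 3.79 CPM in PE, against 0.32, 0.28 and 0.79 CPM in MC (edgeR adjusted p = 0.064), and DESeq2 called it. APOE, an apolipoprotein, had 35.1, 38.9 and 59.6 CPM in PE, against 22.1, 22.3 and 25.1 CPM in MC. GPNMB, a glycoprotein of lipid-laden macrophages, had 9.52, 4.22 and 12.1 CPM in PE, against 2.69, 5.38 and 2.81 CPM in MC, with PE2 in the MC range. Over 11 macrophage genes with counts, the summed level lay between 100.4 and 179 CPM in PE and between 66.7 and 97.7 CPM in MC. The table held 0 of 25 T and NK cell, 0 of 15 B and plasma cell, 0 of 22 endothelial and 0 of 10 erythroid genes, and 1 of 10 dendritic cell genes.

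**Figure D3:**
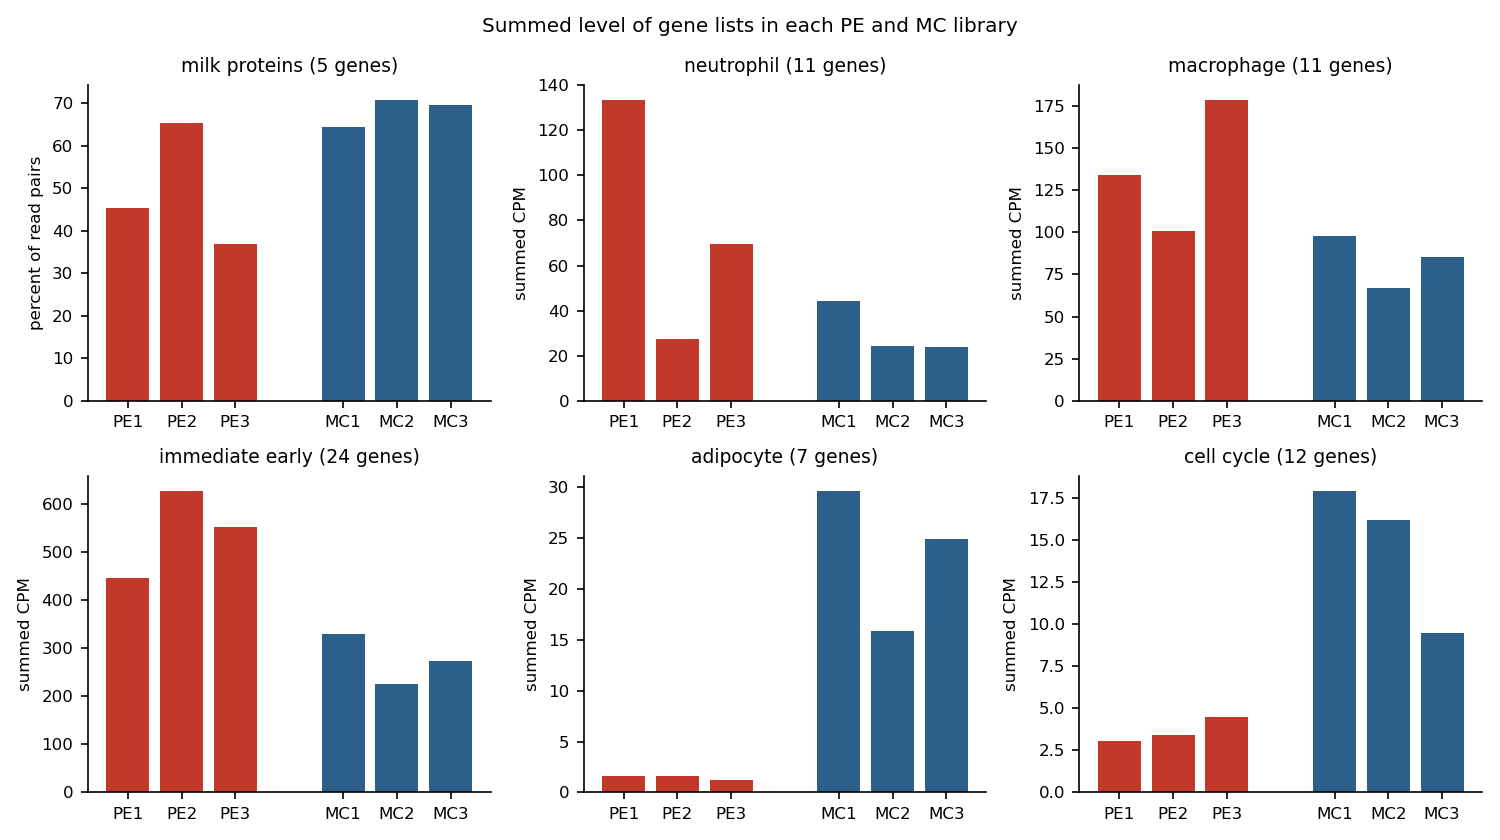
Summed level of 6 gene lists in each PE and MC library, as percent of read pairs for milk proteins and as summed CPM for the others, with 1 bar per library. PE2 resembles MC for milk proteins and neutrophil genes, whereas adipocyte and cell cycle genes are low and immediate early genes are high in all 3 PE libraries.

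The list of fasting and glucocorticoid genes had mixed signs. Of 25 listed, 7 were in the table, 5 with a log2FC above 0. RARRES1 was called, but it is a retinoic acid response gene, so its call is no sign of a fasting or glucocorticoid response. APOD, an apolipoprotein raised in growth arrest, had 120, 76.7 and 164 CPM in PE, against 52.9, 23.4 and 43.3 CPM in MC. CDKN1A, the cell cycle inhibitor p21, had 5.35, 0.95 and 2.36 CPM in PE, against 0.45, 0.28 and 0.94 CPM in MC. ANGPTL4, an inhibitor of lipoprotein lipase, had 4.01, 3.61 and 2.47 CPM in PE, against 11.4, 6.07 and 5.405 CPM in MC. Interferon genes were divided as well, with 4 of 6 in the table below 0 and a median of -1.21, which was -0.34 under totals alone and -0.20 without MC1. MC1 held the highest level of OAS1, an RNA-sensing antiviral enzyme, with 13.4 CPM, while MC2 and MC3 had 2.42 and 2.05 CPM and PE had 3.07, 1.09 and 1.33 CPM.

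In the secretory and signalling lists few genes were in the table. MUCL1, a mucin-like secreted protein (LOC102184404 in RefSeq), had 6.28, 36.9 and 7.20 CPM in PE, against 181, 132 and 198 CPM in MC (log2FC -3.36 ± 0.64, SE, edgeR adjusted p = 0.087), and DESeq2 called it. The luminal keratins that were in the table, KRT7 and KRT18, had the other sign. KRT7 had 170, 90.1 and 103 CPM in PE, against 74.9, 62.7 and 67.9 CPM in MC (edgeR adjusted p = 0.19). KRT18 had 48.4, 10.7 and 28.0 CPM in PE, against 15.97, 12.7 and 13.5 CPM in MC (edgeR adjusted p = 0.34). For KRT18 the groups overlapped, with PE2 under every MC library. ERO1L, the oxidase that drives disulfide formation in the endoplasmic reticulum, had 4.33, 5.65 and 3.19 CPM in PE, against 10.01, 13.7 and 11.8 CPM in MC (edgeR adjusted p = 0.067). IGFBP6, a binding protein of insulin-like growth factors, had 4.38, 5.31 and 6.78 CPM in PE, against 19.3, 13.3 and 14.8 CPM in MC (edgeR adjusted p = 0.061). ESR1, the estrogen receptor, had 74.5, 76.9 and 71.3 CPM in PE, against 31.5, 66.0 and 44.8 CPM in MC. Amino acid supply genes were divided, 2 of 4 above 0, with DDIT3, a stress-response transcription factor, at 7.05, 7.82 and 12.7 CPM in PE and 5.90, 4.47 and 4.25 CPM in MC.

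The 4 of 25 skeletal muscle genes that were in the table had a log2FC below 0 (2 without overlap), with a median of -1.35, which was -0.43 under totals alone. MYH2, a fast myosin of skeletal muscle, had 0, 1 and 2 counts in PE, against 28, 3 and 83 counts in MC, so that its level varied widely within MC. A short list held genes with qPCR assays, 4 of 6 of them in the table, and, being a list taken from the work on these samples, it is no independent evidence of direction. LIPG, endothelial lipase, had 0.28, 1.56 and 0.19 CPM in PE, against 3.66, 4.61 and 1.87 CPM in MC, and PC, at 15.2, 5.21 and 42.6 CPM, was higher still. DPP4, a surface peptidase, had 5.43, 6.67 and 5.77 CPM in PE, against 11.6, 14.4 and 4.04 CPM in MC, and LOC102182683, annotated as like the chemokine growth-regulated alpha protein, had 24.9, 10.3 and 20.6 CPM in PE, against 9.08, 4.58 and 12.3 CPM in MC. None of these 3 passed the adjusted p.

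A group of 6 genes, chosen after their values were seen, had 0 counts in all 3 MC libraries and more than 3 counts in each PE library, and 0 genes had the reverse. LOC102190867, a transcribed pseudogene, had 33.6, 34.2 and 29.8 counts in PE and was at least 21.6-fold higher there against a floor of 3 counts over MC. Its counts were 0, 0 and 2.93 in ME and 18.7, 4.28 and 12.5 in PC, so that both Palmera groups had reads in every library. LOC102175023, a long non-coding RNA, had 14, 32 and 19 counts in PE, 0 in all MC and ME libraries, and 41, 0 and 13 in PC. The others were AVPR2, CFHR5, RNFT2 and HENMT1, with 4 to 13 counts per PE library. The adjusted p of the 6 genes ran from 0.061 (LOC102190867) to 0.15 (HENMT1) by edgeR, so that none was called.

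In ME vs PC the diet ran the same way as in PE vs MC and the breed the other way. By the same rule 0 of its 2282 genes were called (0%) by edgeR, at a smallest adjusted p of 0.116, while 1964 (86.1%) reached an unadjusted p under 0.05. The DESeq2 calls numbered 124. Of its genes 58.3% had a log2FC (ME minus PC) above 0 and 41.7% below 0, with a median of 0.82, which was 2.02 under totals alone. Both tables held 626 genes, which was 33.5% of the PE vs MC table and 27.4% of the ME vs PC table. Of these, 277 were higher in PE and in ME, 306 were lower in both, 10 were higher in PE and lower in ME, and 33 were lower in PE and higher in ME. Under totals alone the same numbers were 374, 144, 40 and 68. Each gene had been selected for differing within its own pair.

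For several lists the pairs had like signs. The milk proteins in the ME vs PC table were 7, all below 0, with a median of -1.25. The 17 immediate early genes were all above 0, with a median of 1.13, and so were 7 neutrophil genes (2.89), 16 macrophage genes (1.79) and 9 heat shock genes (0.97). The ME vs PC table itself leaned the same way, with 58.3% of genes above 0 and a median of 0.82. The medians of the heat shock and immediate early lists lay near that value. The cholesterol list had 10 genes below 0 (-0.97) and the mitochondrially encoded list 9 below 0 (-0.68). Other lists looked unlike PE vs MC, and the difference was not tested: 2 cell cycle genes were in the ME vs PC table, both above 0, 4 of 9 fibroblast and matrix genes were above 0, and so were all 8 interferon genes. The 13 T and NK cell genes in the ME vs PC table were all above 0, and PE vs MC has no value for that list. ME2 had the highest ME values of CCDC80, TGFBI, LUM and MKI67 (5.03 CPM of MKI67, against 0.35 and 0.89 CPM in ME1 and ME3), and its TMM factor of 2.30 stood apart.

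Of the 43 genes with opposite signs, VIM, the intermediate filament of mesenchymal cells, had 229, 139 and 200 CPM in PE, against 321, 257 and 266 CPM in MC, and 262, 559 and 261 CPM in ME, against 164, 197 and 217 CPM in PC. ACVRL1, a BMP receptor of endothelium, had 5.10, 6.26 and 5.85 CPM in PE, against 10.4, 10.96 and 11.03 CPM in MC, and 9.61, 15.0 and 8.58 CPM in ME, against 7.55, 6.78 and 6.95 CPM in PC. For both genes the groups of each pair did not overlap, and every Majorera library lay above every Palmera library. Both were chosen after their values were seen.

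**Figure D4:**
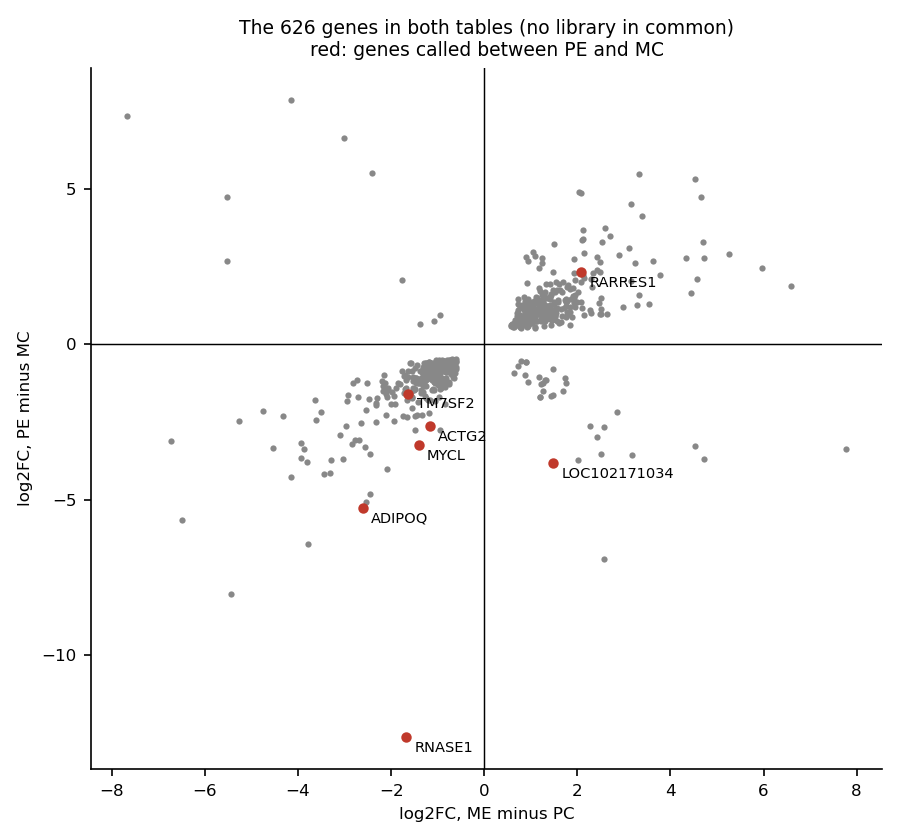
Log2FC of PE minus MC (y axis) against ME minus PC (x axis) for the 626 genes in both tables, which share no library, with the genes called in PE vs MC in red. Of the points, 277 lie in the upper right and 306 in the lower left quadrant, and LOC102171034 lies in the lower right.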

How the data were processed

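Mammary biopsies of 12 goats (4 groups of 3) were sequenced. Per the labels and the study's methods, the authors aligned reads to CHIR_1.0 with Bowtie2 2.2.3, estimated counts per gene with RSEM 1.2.17 and compared groups with edgeR 3.2.4. The deposited values are expected counts per gene and library, without normalization, and hold only genes whose p-value in the authors' own test lay under 0.05 before adjustment. The authors' columns of log2 fold change and p-value (FDR) were used only to find the number of genes tested, and their enrichment sheets were not used. Expected counts are not whole for 8.99% of values and were rounded. There were 0 columns without a sample.

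Library totals came from the study's list of mapped reads, in the order that fitted the counts. TMM factors came from the counts of 1998 genes not selected for differing, the rows given here of the study's supplementary count table of 24260 genes, and the trend and prior of the spread from the 913 of them with at least 1 CPM in 3 libraries. edgeR 4.0.16 (limma 3.58.1, R 4.3.3) ran the quasi-likelihood test on the 6 libraries with no covariate, since the samples share only replicate numbers. P-values were adjusted over the 14760 genes tested for the table, taking those outside it to have larger p. DESeq2 1.42.0, library totals alone, other TMM sets, filters and corrections, leaving out each library, all 12 libraries and the replicate block were run as alternatives. List counts without PE2 were added after the values were seen. Replicates were separate goats.

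In data simulated for PE vs MC on 1869 genes, edgeR recovered 45% of genes changed by a log2 of 1.5 and 98% of those changed by 3, and DESeq2 70% and 99%. Of 1669 unchanged genes 0 passed the adjusted p by edgeR and 5 by DESeq2. Recovery was judged on the adjusted p and the direction alone. The fold and count minimums were not applied, so these are not rates of the calling rule. Changed genes averaged at least 1 CPM, and recovery of genes with fewer reads was not tested. Counting intervals and floors of 3 counts cover counting error only.

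Named genes were up to 10 called genes per direction, filled by those of smallest p with over 100 counts in a library and no overlap, up to 5 members with the smallest p of each of 29 lists, and all milk protein and qPCR genes with counts in all 6 libraries. Members and lists were chosen with earlier results of these data known. Of the 1869 IDs, 1758 matched RefSeq ARS1.2, used for names and biotypes only. Python 3.11.15, pandas 2.3.3, numpy 2.4.6, scipy 1.17.1 and matplotlib 3.10.9 were used.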

Additional observations from a re-analysis of the deposited data

How the results depend on the processing

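Calls of edgeR numbered 10 (1 higher and 9 lower in PE). They numbered 505 (470 and 35) under totals alone, 78 (24 and 54) with DESeq2, 6 (0 and 6) when adjusted over all genes quantified, 4 (0 and 4) with the spread from the table's genes, 5 (0 and 5) with all 12 libraries, and 13 (3 and 10) with no fold minimum. The fit with all 12 libraries held only the 892 of the 1869 genes that had counts in all 12. With 1 library left out the calls ran from 3 to 87 (0 to 35 higher, 3 to 52 lower). The replicate block left 3 calls (0 and 3). After each group's mean was subtracted, same-numbered PE and MC libraries correlated at -0.11, 0.19 and 0.08 over 913 rows. Pairs with unlike numbers ran from -0.25 to 0.18. Whether same-numbered goats shared more than the number was not tested. ME vs PC had 0 calls with edgeR, 973 under totals alone and 124 with DESeq2. The milk protein difference ran from -27.3 to -13.0 percentage points with 1 library left out. With the effective library size as denominator the difference was -51.2. That quantity is not a share of reads, since the genes then came to 104% of the effective size in MC2. The 4 other scalings or filters (TMM over 6 libraries, totals as listed, DESeq2 size factors, no count minimum) left the 112 named genes on their side of the threshold.

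Under totals alone 19 named genes had a log2FC of the other sign: CTGF 0.21, FDPS 0.19, EBP 0.16, PFKL 0.24, DHCR7 0.0043, VLDLR 0.076, NSDHL 0.047, PGM1 0.35, ND3 0.15, COX2 0.068, SSR4 0.26, ATP6 0.062, ASNS 0.38, SLC7A1 0.35, ND4L 0.32, COX1 0.066, BATF3 0.13, DPP4 0.13 and CSN1S1 0.22. C2 ran from -1.57 to 0.19 with 1 library left out, 0.19 without MC1. The list medians under totals alone were -0.48 for milk proteins, 3.72 for neutrophil, -0.34 for interferon, -0.13 for milk fat, 0.16 for cholesterol, 0.24 for lactose, 1.03 for amino acid supply, 0.26 for the secretory pathway, -0.29 for lactation signalling, 1.82 for luminal, -0.15 for myoepithelial, -0.37 for fibroblast, -3.12 for adipocyte, 2.14 for macrophage, 0.13 for dendritic cell, -0.43 for skeletal muscle, 2.27 for immediate early, 2.03 for heat shock, 2.31 for protease, 2.10 for fasting, 1.89 for acute phase, -1.65 for cell cycle, 0.23 for mitochondrial and -0.84 for qPCR genes. The median of the table moved by 0.92 in the same way. Genes with few counts, such as those of the cell cycle, are limited by depth. The cause of these differences was not tested.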
